A study of Mus musculus with 10 samples.

Results

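Elane, Mpo, Prtn3, Ctsg, Ms4a3, Cebpe, Gfi1 and Csf3r are genes of the promyelocyte, the neutrophil precursor that fills the primary (azurophil) granules. They were chosen by name. Of the 8 genes, 7 were represented on the array by a probe set whose annotation gave exactly 1 gene symbol, 1 probe set each, out of 18193 genes so represented. No probe set was matched to Cebpe, which encodes a transcription factor of granulocyte maturation, so no value is given for it. RNA was measured on 1 array for each of 10 individual mouse fetal livers at embryonic day 14.5. There were 5 wild type livers and 5 livers of Zfp36l2 knockout fetuses, all on a mixed b6 and 129 background and without a named treatment. Zfp36l2 encodes an RNA-binding protein that promotes the decay of mRNAs with AU-rich elements. The labels give neither the deleted part of the gene nor the sex or litter of a fetus.

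The fetal liver is the main blood-forming organ at this age, and granulocyte precursors arise there beside a large majority of erythroid cells. At the promyelocyte stage the serine proteases neutrophil elastase (Elane), proteinase 3 (Prtn3) and cathepsin G (Ctsg) are made together with myeloperoxidase (Mpo) and packed into primary granules. The proteins of the secondary granules are made later, at the myelocyte and metamyelocyte stages. In RNA from a whole liver, fewer cells of a type and less RNA per cell cannot be told apart.

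Values are normalized intensities in array units, and only the same probe set is compared between livers. Before normalization the median of an array was 19.5 at the lowest and 25.01 at the highest, and averaged over the other 9 arrays, each array correlated at r = 0.953 to 0.959. The brightest of 3 probe sets of the targeted gene Zfp36l2 had 396, 397, 596, 391 and 389 in wild type replicates 1 to 5, and 108, 82.3, 109, 103 and 108 in knockout replicates 1 to 5. Its log2 level fell by 2.08 ± 0.13 (SE, limma adjusted p = 1.47e-06), without overlap. The other probe sets of Zfp36l2 are not described here. The hepatoblast markers Afp, Alb and Ttr averaged 16358, 15407 and 15001 in wild type livers, near the top of the scale, and the red cell anion exchanger Slc4a1 averaged 7929. The probe set of the alpha globin gene Hba-a1 with 1 symbol averaged -3.33 in wild type livers, and no such probe set was matched to Hbb-bt. Limma called 57 of 27022 tested probe sets at an adjusted p under 0.05, which is 0.211%. That count moved to between 13 and 34 when any liver but wild type replicate 5 was left out, and to 168 without wild type replicate 5.

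The promoters of the granule enzyme genes Mpo, Elane, Prtn3 and Ctsg are shown as sequence only, and no link to their levels was tested. Prtn3 and Elane are neighbours on chromosome 10 with 0 annotated genes between them. Each sequence holds the 250 bases before the RefSeq start in GRCm38.p6, 5′ to 3′ in the direction of the gene. Capitals mark GAGGAA (in reverse TTCCTC), the core bound by the ETS factor PU.1, and AACNG (in reverse CNGTT), the core bound by Myb.
Mpo, chr11:87793534-87793783, plus strand: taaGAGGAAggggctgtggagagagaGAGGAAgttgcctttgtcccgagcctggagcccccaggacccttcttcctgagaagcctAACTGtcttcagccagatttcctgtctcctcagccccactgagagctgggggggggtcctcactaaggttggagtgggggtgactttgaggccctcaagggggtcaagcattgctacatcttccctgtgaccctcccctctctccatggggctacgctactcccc
Elane, chr10:79886062-79886311, plus strand: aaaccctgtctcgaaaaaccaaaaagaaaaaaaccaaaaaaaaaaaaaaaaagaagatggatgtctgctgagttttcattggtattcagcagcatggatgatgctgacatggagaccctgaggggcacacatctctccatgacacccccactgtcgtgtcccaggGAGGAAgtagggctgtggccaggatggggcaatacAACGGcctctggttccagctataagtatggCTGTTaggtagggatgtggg
Prtn3, chr10:79879417-79879666, plus strand: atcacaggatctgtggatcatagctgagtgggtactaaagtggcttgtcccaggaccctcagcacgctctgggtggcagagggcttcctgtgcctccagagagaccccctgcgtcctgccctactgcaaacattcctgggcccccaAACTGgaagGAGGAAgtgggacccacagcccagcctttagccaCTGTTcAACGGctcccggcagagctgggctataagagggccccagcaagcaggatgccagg
Ctsg, chr14:56102575-56102824, minus strand: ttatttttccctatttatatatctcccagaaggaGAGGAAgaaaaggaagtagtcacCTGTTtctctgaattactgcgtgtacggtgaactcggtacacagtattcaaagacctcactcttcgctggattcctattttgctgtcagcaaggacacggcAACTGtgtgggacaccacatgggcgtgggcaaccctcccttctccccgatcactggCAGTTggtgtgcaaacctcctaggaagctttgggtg

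GAGGAA was found in each of the 4 windows, with 2 matches in Mpo and 1 in Elane, Prtn3 and Ctsg. It was present on either strand in 23.3% of 32851 RefSeq windows of this length. In the neighbours Elane and Prtn3 the match began 85 and 95 bases before the start, and each also held AACGG, at 50 and 55 bases before it. The Myb core was common, in 74.2% of all windows, and no match of the 4 genes overlapped another. The C/EBP pattern TTNNGNAA (in reverse TTNCNNAA), found in 36.8% of windows, had no match in the sequences above, 1 in Ms4a3 and 1 in a Gfi1 window, where it overlapped a Myb core. The Csf3r window held GAGGAA 86 bases before the start and a Myb core at 111. The Ms4a3 window held neither GAGGAA nor a Myb core. A match is a description of letters, and binding was not measured.

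None of the 7 genes was called between the genotypes. Limma gave 0 of 7 at an adjusted p under 0.05, where 0.211% of all tested probe sets passed, and 1 of 7, Ctsg, at an unadjusted p under 0.05, where 9.75% did. The exact permutation test gave 0 of 7 under 0.05, and its lowest p was 0.127, for Ctsg. In each gene the livers of the genotypes overlapped, while 2.27% of all tested probe sets had no overlap. The log2 difference was positive in 2 genes, Ctsg and Prtn3, and negative in 5, with a median of -0.11, against a median of 0.00018 over all 12821 genes tested. Leaving out any liver gave 0 calls among the 7.

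Mpo encodes the haem enzyme that makes hypochlorous acid from hydrogen peroxide. Its level was 1027, 1474, 1753, 1043 and 2690 in wild type replicates 1 to 5. In knockout replicates 1 to 5 it was 1592, 821, 1556, 1604 and 994. Wild type replicate 5 was the highest of the 10 livers and knockout replicate 2 the lowest, and the remaining livers of both genotypes lay among each other. The means were 1597 ± 683 and 1313 ± 376 (SD, n = 5). The log2 difference was -0.24 ± 0.24 (SE, 95% interval -0.75 to 0.27, limma adjusted p = 0.817), and -0.03 without wild type replicate 5.

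Elane encodes neutrophil elastase. It measured 225, 439, 339, 249 and 638 in wild type replicates 1 to 5, and 340, 186, 422, 489 and 282 in knockout replicates 1 to 5. The same 2 livers, wild type replicate 5 and knockout replicate 2, were the highest and the lowest, a 3.43-fold span. The log2 difference was -0.11 ± 0.27 (SE, 95% interval -0.68 to 0.47, limma adjusted p = 0.947), from means of 378 ± 168 and 344 ± 118 (SD, n = 5). Its sign turned when wild type replicate 5 was left out (0.11) and when knockout replicate 2 was (0.10).

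Prtn3 encodes proteinase 3, which is closely related to elastase. Wild type replicates 1 to 5 had 441, 700, 640, 409 and 1008, and knockout replicates 1 to 5 had 905, 440, 980, 969 and 608. Of the knockout livers, 3 lay above every wild type liver but replicate 5, and replicate 2 lay among the lowest wild type livers. The means were 639 ± 241 and 780 ± 243 (SD, n = 5), with a log2 difference of 0.30 ± 0.24 (SE, 95% interval -0.21 to 0.81, limma adjusted p = 0.748). That difference ran from 0.16 without wild type replicate 4 to 0.49 without knockout replicate 2.

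Ctsg encodes cathepsin G, a protease of the same family whose gene lies on chromosome 14. Its level was 180, 337, 313, 162 and 418 in wild type replicates 1 to 5, and 479, 226, 580, 495 and 392 in knockout replicates 1 to 5. Of the knockout livers, 3 lay above all wild type livers, and knockout replicate 2 lay between wild type replicates 1 and 3. From means of 282 ± 109 and 434 ± 134 (SD, n = 5) the log2 difference was 0.65 ± 0.26 (SE, 95% interval 0.09 to 1.21). It did not pass over all probe sets (limma adjusted p = 0.422, unadjusted p = 0.0261), and its values ran from 0.47 to 0.87 when livers were left out in turn.

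Ms4a3 encodes a membrane protein of the MS4A family that marks granulocyte and monocyte precursors. It had 149, 247, 182, 152 and 334 in wild type replicates 1 to 5, and 198, 125, 203, 251 and 168 in knockout replicates 1 to 5. The log2 difference was -0.14 ± 0.22 (SE, 95% interval -0.60 to 0.33, limma adjusted p = 0.900), and its sign turned without wild type replicate 5 (0.04) or knockout replicate 2 (0.0047). The order of the 10 livers was the same as for Elane.

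Gfi1, a zinc finger repressor of the granulocyte lineage, and Csf3r, the receptor of the growth factor G-CSF, were dim. Gfi1 had 23.5, 27.1, 24.8, 0.602 and 54.2 in wild type replicates 1 to 5, and 17.7, 32.1, 19.2, 32.9 and 30.3 in knockout replicates 1 to 5. Wild type replicate 4 lay under the floor of 16 at which values were set before log2. Its log2 difference, -0.07 ± 0.33 (SE, limma adjusted p = 0.972), changed sign with the floor and with single livers left out, so no direction is given. Csf3r had 22.6, 42.4, 36.0, 82.1 and 81.2 in wild type replicates 1 to 5, and 36.7, 33.3, 46.9, 21.8 and 51.6 in knockout replicates 1 to 5. Its 2 highest livers were wild type replicates 4 and 5, and the log2 difference was -0.37 ± 0.37 (SE, 95% interval -1.15 to 0.41, limma adjusted p = 0.817). It ran from -0.63 without wild type replicate 1 to -0.17 without wild type replicate 4.

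**Figure D1:**
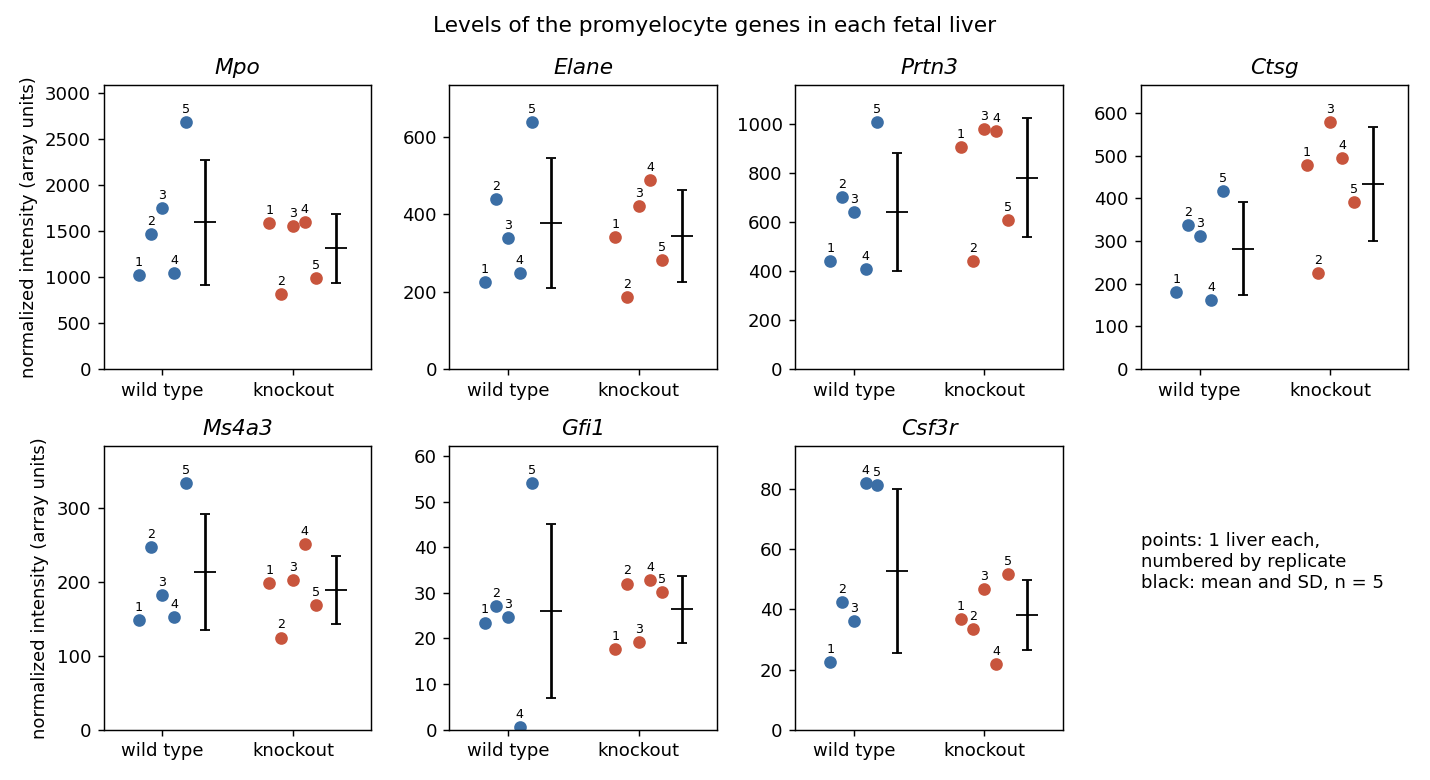
Normalized intensity (array units, linear axes from 0) of each of the 7 genes in each liver, with points numbered by replicate and the mean and SD of each genotype (n = 5) in black. The genotypes overlap in every panel, wild type replicate 5 is highest for Mpo, Elane, Prtn3, Ms4a3 and Gfi1, and 3 knockout livers lie above all wild type livers for Ctsg.

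The 5 bright genes varied together across livers. All 10 pairs among Mpo, Elane, Prtn3, Ctsg and Ms4a3 correlated positively over the 10 livers, with Pearson's r from 0.61 to 0.98, and 8 of the 10 passed after Benjamini-Hochberg adjustment over all 21 pairs of the 7 genes (permutation tests). Elane and Ms4a3 had r = 0.98 and Spearman's rho = 1 (permutation p = 1e-05 for each, the smallest that could be given, adjusted p = 0.00021). The neighbours Elane and Prtn3 had r = 0.89 and rho = 0.90 (permutation p = 9e-04 and 0.00073, adjusted p = 0.00378 and 0.00595). Without the 2 livers farthest from the median on the x axis r was 0.96 and 0.87 for these pairs. Ctsg and Prtn3 had r = 0.94 and rho = 0.88 (permutation p = 0.00011 and 0.00143, adjusted p = 0.00116 and 0.00751), and r = 0.90 without wild type replicate 4 and knockout replicate 2, the 2 farthest for that pair.

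Ctsg and Mpo were the least alike of the 10 pairs, at r = 0.61 and rho = 0.50 (permutation p = 0.0599 and 0.145, adjusted p = 0.126 and 0.305), and r = 0.64 without the 2 farthest livers. With each genotype's mean removed from both genes their r was 0.92, and over the 10 pairs it then ran from 0.90 to 0.98. Pairs with Gfi1 or Csf3r had r from -0.04 to 0.51, and none of these 11 passed (lowest permutation p = 0.13, adjusted p = 0.248). The points of 1 liver share its array and its scaling.

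**Figure D2:**
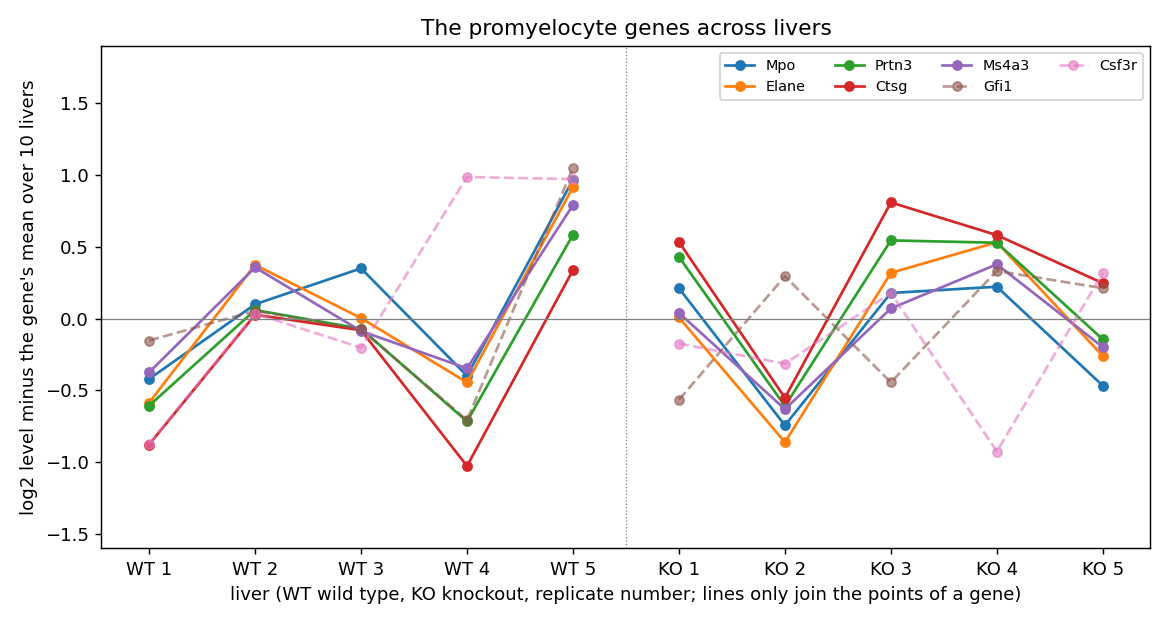
Log2 level of each gene minus its mean over the 10 livers, by liver, with lines that only join the points of a gene within a genotype and dashed lines for the dim Gfi1 and Csf3r. The 5 bright genes are high together in wild type replicate 5 and low together in wild type replicates 1 and 4 and knockout replicate 2, while Ctsg (red) is the lowest of them in wild type replicate 5 and the highest in knockout replicates 1 to 5.

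Ctsg and Prtn3 were higher in knockout livers relative to the other bright genes of the same liver. The within-array ratio of Ctsg to Mpo signal was 0.175, 0.229, 0.178, 0.156 and 0.155 in wild type replicates 1 to 5. In knockout replicates 1 to 5 it was 0.301, 0.275, 0.372, 0.309 and 0.395. Each knockout liver lay above each wild type liver, and the ratio was 1.85-fold higher, a log2 difference of 0.89 (two-sided exact permutation p = 0.00794, the lowest p that groups of 5 livers allow, adjusted p = 0.0238 over 21 pairs). A ratio between probe sets is no ratio of transcript numbers, and only its change between livers is read.

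Prtn3 over Mpo was 0.429, 0.475, 0.365, 0.392 and 0.375 in wild type replicates 1 to 5, and 0.568, 0.537, 0.630, 0.604 and 0.611 in knockout replicates 1 to 5. These did not overlap either, and the log2 ratio was 0.54 higher in the knockout (exact permutation p = 0.00794, adjusted p = 0.0238), with SDs of 0.16 in wild type and 0.09 in knockout livers (n = 5). Ctsg also moved against Prtn3, by 0.35 on the log2 scale without overlap (same exact p and adjusted p). Against Elane the log2 ratio of Ctsg was 0.75 higher and that of Prtn3 0.41 higher, and against Ms4a3 they were 0.78 and 0.44 higher. These too were without overlap, with the same exact p and adjusted p. The gap of Prtn3 over Ms4a3 was narrow, with a highest wild type log2 ratio of 1.815 and a lowest knockout one of 1.821. Without normalization, with median scaling or with an offset of 32, the genotypes overlapped for this pair (exact permutation p = 0.0159).

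The ratios among Mpo, Elane and Ms4a3 overlapped in all 3 pairs. Elane over Mpo differed by 0.13 (exact permutation p = 0.365), Ms4a3 over Mpo by 0.10 (0.500) and Elane over Ms4a3 by 0.03 (0.770) on the log2 scale. Adjusted over the 21 pairs these were 0.639, 0.794 and 0.877. In all, 7 of 21 pairs had no overlap and an adjusted p under 0.05 with the main settings. These were the 7 that set Ctsg or Prtn3 against each other or against Mpo, Elane or Ms4a3. Of all other tested probe sets, 0.555% had a log2 ratio to Mpo that did not overlap between genotypes, and 0.544% one that was higher in each knockout liver. For levels instead of ratios 2.27% had no overlap. With genotype means removed, Ctsg and Prtn3 followed Mpo at r = 0.92 and 0.97, which narrows their ratios to it. The share over all probe sets is therefore no chance rate for these 2 genes. No such share was computed for ratios to Elane, Ms4a3 or Prtn3. The 7 pairs share genes and are not separate results. A ratio shows unequal change, and which of its genes changed is not given by it. These ratios were chosen after the values were seen.

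**Figure D3:**
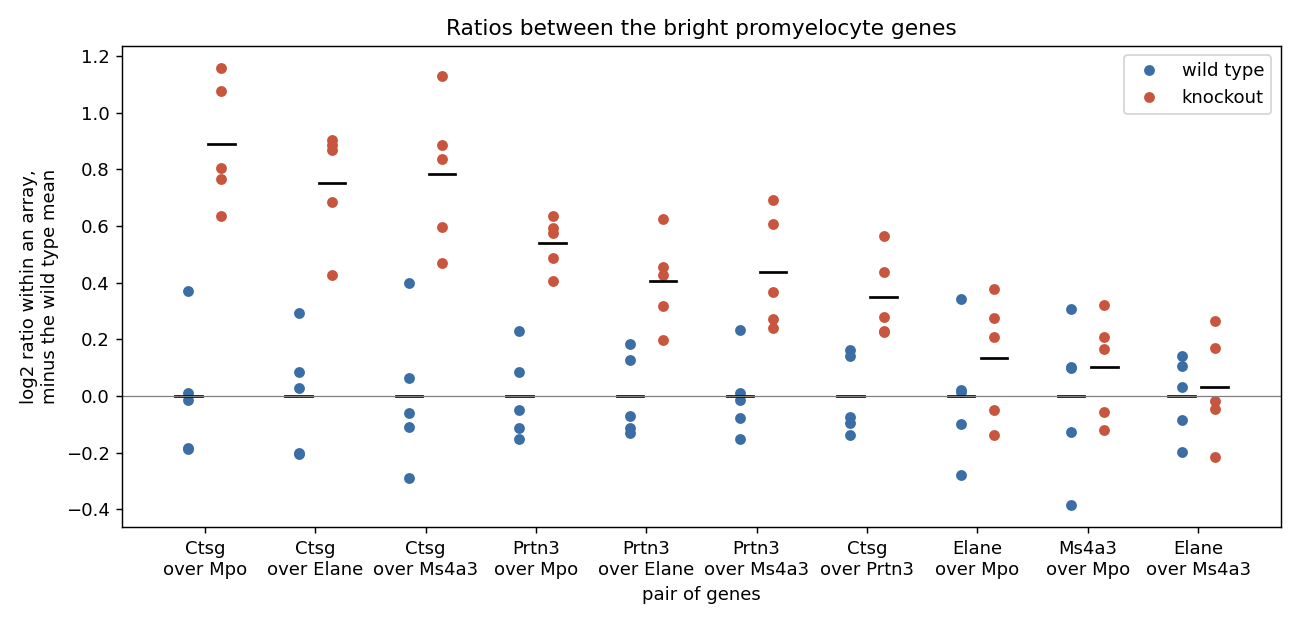
Within-array log2 ratios of 10 pairs of the bright genes, each minus its wild type mean, with 1 point per liver and a bar at the mean (n = 5). In the first 7 pairs, with Ctsg or Prtn3 on top, each knockout liver lies above each wild type liver, with mean shifts of 0.89 for Ctsg over Mpo and 0.35 for Ctsg over Prtn3, and the last 3 pairs overlap.

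**Figure D4:**
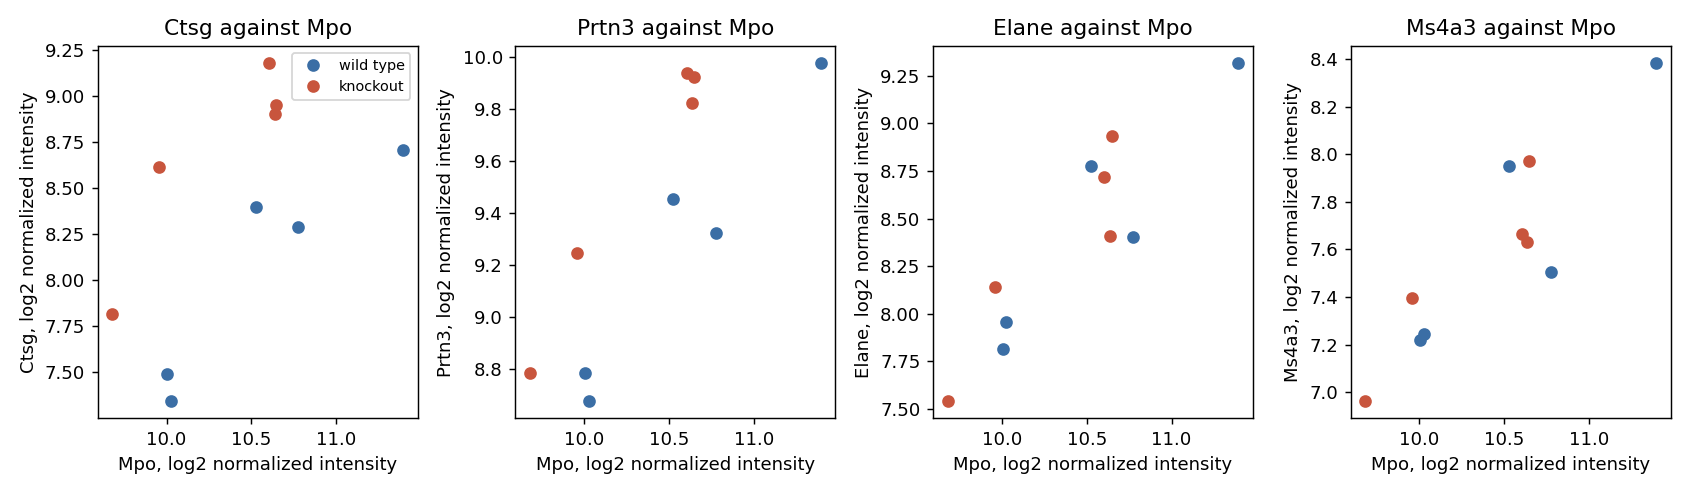
Log2 normalized intensity of Ctsg, Prtn3, Elane and Ms4a3 against that of Mpo, 1 point per liver, with axes that do not start at 0. The knockout livers lie above the wild type livers of like Mpo level for Ctsg and Prtn3, and the genotypes are mixed for Elane and Ms4a3.

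The same comparison was made over the whole array by adding the liver's log2 level of Mpo to the model. At equal Mpo level Ctsg rose by 0.89 ± 0.13 (SE, limma adjusted p = 0.00617) and Prtn3 by 0.53 ± 0.08 (limma adjusted p = 0.00952). They were 2 of the 6 other genes, where 0.437% of all tested probe sets passed. Elane (0.14 ± 0.13, limma adjusted p = 0.776), Ms4a3 (0.05 ± 0.13, 0.948), Gfi1 (0.03 ± 0.34, 0.988) and Csf3r (-0.31 ± 0.39, 0.858) did not pass. With Elane as the covariate the values were 0.74 ± 0.12 for Ctsg (limma adjusted p = 0.00857) and 0.39 ± 0.08 for Prtn3 (0.0424), where 0.6% of probe sets passed. With Ms4a3 they were 0.80 ± 0.14 (limma adjusted p = 0.0143) and 0.45 ± 0.10 (0.0492), where 0.611% passed. Ctsg and Prtn3 varied with each covariate and their errors narrowed, so these shares are no chance rates for them. The same limit applies below to any other gene that varies with Mpo.

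Whether these differences passed at equal Mpo level depended on the settings. Both genes lost their calls without the variance trend (limma adjusted p = 0.142 and 0.190), without a filter on dim probe sets (0.208 and 0.190) and with a floor of 32 (0.0739 and 0.0685). Prtn3 also lost its call without wild type replicate 4 (0.51, adjusted p = 0.0684). The differences themselves stayed between 0.80 and 0.98 for Ctsg and between 0.50 and 0.59 for Prtn3 in all 19 alternatives. At these bright levels the other floors, the filters and the variance trend could not change them. Only normalization, the offset, array weights and left-out livers could.

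**Figure D5:**
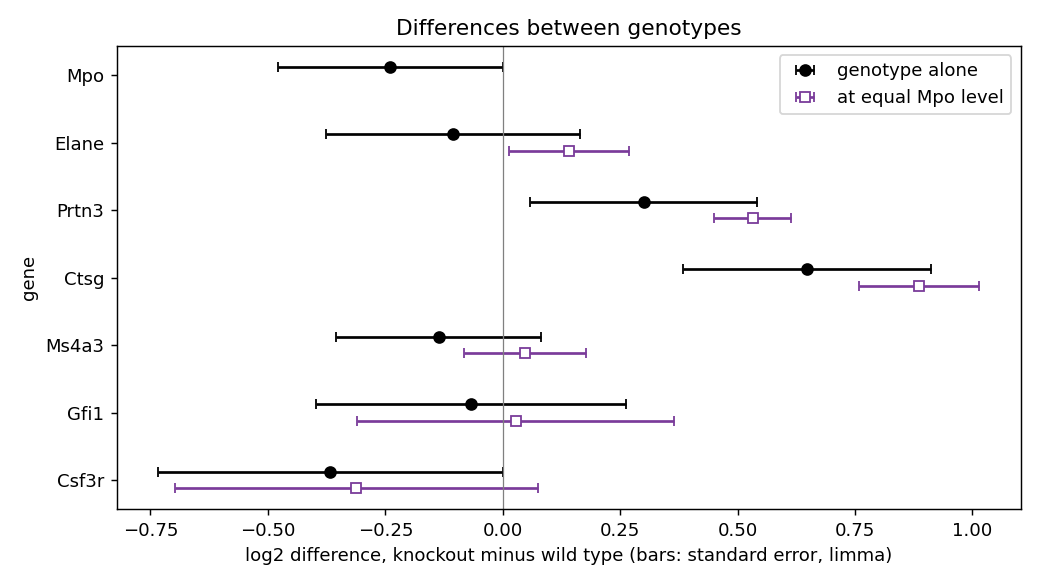
Log2 difference between knockout and wild type livers with the standard error of limma, from genotype alone (filled circles) and with the liver's Mpo level in the model (open squares, 10 livers). Ctsg moves from 0.65 to 0.89 and Prtn3 from 0.30 to 0.53 with smaller errors, and Elane and Ms4a3 stay near 0.

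Among genes that pack, activate or restrain the granule enzymes, or share their compartment, 1 of 14 tested was called, and it rose. Over all tested probe sets 0.211% were called. The called gene was Ctsc, the dipeptidyl peptidase that trims the propeptides of elastase, proteinase 3 and cathepsin G into active enzymes. It averaged 708 ± 139 (range 481 to 859) in wild type and 1128 ± 103 (1032 to 1302) in knockout livers (SD, n = 5), without overlap, a log2 difference of 0.69 ± 0.12 (SE, limma adjusted p = 0.0298). Its call held only without wild type replicate 4 or 5 when livers were left out in turn (highest adjusted p = 0.0672). It was also lost with the lowest positive value as floor, a floor of 32, no filter or no variance trend (highest adjusted p = 0.267), and its values ran from 0.56 to 0.77 over all 20 alternatives. Of the 14, 11 had positive differences, where 50.1% of all tested genes did, with a median of 0.23. At equal Mpo level 4 rose, where 0.307% of all tested probe sets were called higher. They were Ctsc (0.76), the granule proteoglycan core Srgn (0.55), the lysozyme gene Lyz2 (1.51) and Plac8 (0.75), with limma adjusted p = 0.00599, 0.00865, 0.00391 and 0.00294. These 4 kept their calls without any 1 liver and lost them without a filter or the variance trend, and Ctsc, Srgn and Lyz2 also with a floor of 32 (highest adjusted p = 0.218, 0.218 and 0.229, and 0.117 for Plac8). The levels of the genotypes overlapped for Srgn, Lyz2 and Plac8. The brightest members were not called: the cysteine protease Ctsb averaged 5545 and 5271, and the chaperones of the secretory pathway Calr and Canx averaged 3118 and 3607, and 2747 and 2769 (limma adjusted p = 0.821, 0.210 and 0.969).

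Genes listed for secondary granules and mature neutrophils gave 0 calls among 17 tested by limma and 15 at an unadjusted p under 0.05, where 9.75% of all probe sets lay. Whether their signal came only from neutrophils, or only from stages after the promyelocyte, was not tested. Of the 17, 16 had positive differences, where 50.1% of all tested genes did, with a median of 0.93. Of the brightest, the calcium-binding proteins S100a9 and S100a8 differed by 0.93 ± 0.34 and 0.75 ± 0.33 (SE, limma adjusted p = 0.337 and 0.468), and the granule protein Ngp by 1.65 ± 0.44 (0.151). At equal Mpo level 7 of the 17 rose, where 0.307% of all tested probe sets were called higher. They were Ltf (2.13), Lcn2 (1.86), Ngp (1.96), Cybb (1.38), Ncf1 (1.19), Itgb2 (0.91) and Anxa1 (1.61), with a median of 1.18 over the 17. In each of these 7 the levels of the genotypes overlapped. The highest wild type and the lowest knockout liver had 1031 and 702 for Ltf, 988 and 676 for Lcn2, and 3000 and 1793 for Ngp. Ncf1 and Itgb2 kept their calls without any 1 liver, and the other 5 lost them at least without wild type replicate 4. All 7 lost them with a floor of 32, without a filter and without the variance trend, and Ltf, Lcn2 and Ngp also with the lowest positive value as floor, with a highest adjusted p of 0.146 for Ncf1 to 0.339 for Lcn2. These 7, and Srgn, Lyz2 and Plac8 above, were named after their values were seen. Across all genes the median at equal Mpo level was -0.0037.

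Transcription factors of granulocyte and monocyte fate gave 0 calls among 18 tested by limma and 7 at an unadjusted p under 0.05, with 11 positive and a median of 0.16. Over all tested probe sets 9.75% lay under that p, and 50.1% of all tested genes were positive. Id2, an inhibitor of basic helix-loop-helix factors, averaged 908 and 1103, the lymphoid and myeloid regulator Ikzf1 691 and 651, and Gfi1b, the erythroid and megakaryocytic relative of Gfi1, 608 ± 49.2 and 492 ± 36.5 (limma adjusted p = 0.239, 0.757 and 0.118). At equal Mpo level 1 of the 18 rose, where 0.307% of all tested probe sets were called higher. It was Cebpb (0.76, limma adjusted p = 0.0319), a factor of emergency granulopoiesis named after its value was seen. It kept that call in 4 of 10 fits that left out a liver, losing it when replicate 1, 3 or 4 of the wild type or 1, 2 or 3 of the knockout was dropped (highest adjusted p = 0.147), and also with the lowest positive value or 32 as floor, no filter or no variance trend (highest adjusted p = 0.271). Growth factor receptors and G-CSF signalling genes gave 0 calls among 16 by limma and 6 at an unadjusted p under 0.05, with 10 positive and a median of 0.07. Csf1r, the macrophage colony-stimulating factor receptor, averaged 761 and 1010, and the kinases Jak1 and Jak2 583 and 589, and 456 and 351 (limma adjusted p = 0.237, 0.967 and 0.0715). At equal Mpo level Csf1r rose (0.53, limma adjusted p = 0.0455), a call that held in only 2 of 10 fits that left out a liver, those without wild type replicate 5 or knockout replicate 4 (highest adjusted p = 0.203). It was also lost with each other floor or offset, each other filter and no variance trend (highest adjusted p = 0.352). The ligand gene Csf3 lay under the floor of 16 in all 10 livers.

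Markers of other myeloid cells had mostly positive differences too, and so did the lymphoid and the endothelial and stromal genes below. Over all tested genes 50.1% were positive, and 9.75% of all tested probe sets had an unadjusted p under 0.05. Of 5 tested genes of mast cells, basophils and eosinophils 4 had positive differences, with a median of 0.77. The list's summed level was 298 to 611 in wild type and 557 to 1122 in knockout livers, and Prg3, Fcer1a and Ccr3 lay under the floor in all livers. Epx, the eosinophil peroxidase, rose from 32.2 ± 24.8 to 158 ± 65.2 (SD, n = 5, limma adjusted p = 0.0285) and was the only call of that list. When livers were left out its call held only when replicate 2 or 5 of the wild type or 2 of the knockout was the one dropped (highest adjusted p = 0.0737). It was also lost with the lowest positive value as floor, a floor of 32, no filter or no variance trend (highest adjusted p = 0.221). The list's brightest gene Prg2, an eosinophil granule protein, averaged 304 and 579 (adjusted p = 0.106). Of 12 tested monocyte and macrophage genes 11 were positive, with a median of 0.35, 0 calls by limma, 4 at an unadjusted p under 0.05, and a summed level of 3231 to 5410 against 4365 to 5093, and the adhesion molecule Vcam1, the brightest, averaged 886 and 957 (adjusted p = 0.758). The secondary granule list summed to 5583 to 26197 and 14728 to 27811. The part of these cells in the Ctsg and Prtn3 ratios was not tested.

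Among the remaining lineages calls came from megakaryocytes, where 4 of 7 tested genes fell, Pf4, Ppbp, Gp5 and Itga2b (limma adjusted p = 0.000107, 0.000146, 0.0240 and 0.0359), and 7 of 7 were negative. Of all tested probe sets 0.104% were called lower. Pf4 and Ppbp, platelet chemokine genes, differed by -1.39 and -1.38 on the log2 scale and kept their calls without any 1 liver, while Gp5 kept its in 5 and Itga2b in 2 of 10 such fits. Without a filter Pf4 and Ppbp lost theirs (adjusted p = 0.0606 and 0.0635), and Gp5 and Itga2b lost theirs there, with the lowest positive value or 32 as floor and without the variance trend (highest adjusted p = 0.150 and 0.184). By limma, erythroid genes gave 0 calls of 7 (5 at an unadjusted p under 0.05) and a median of -0.18, and hepatocyte genes 0 of 8 (2) and 0.05. Lymphoid genes gave 0 of 5 (1) and 0.31, and endothelial and stromal genes 0 of 9 (2) and 0.20. Positive differences were seen in 1 of 7 erythroid, 5 of 8 hepatocyte, 5 of 5 lymphoid and 9 of 9 endothelial and stromal genes. The share over all tested genes was 50.1%. Over all tested probe sets 9.75% had an unadjusted p under 0.05. The brightest genes of these lists were Slc4a1, Afp, the pre-B cell gene Igll1 (115 and 144) and the collagen gene Col3a1 (1075 and 1111).

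Outside the 8 genes, the 6 whose log2 levels followed Mpo most closely over the 10 livers, among 12814 genes, were Pdpk1, F13a1, Lrch4, Usf2, Epc2 and Macir, with Pearson's r of 0.95, 0.93, 0.91, 0.89, 0.89 and 0.89. Elane had r = 0.92, and 2 of these genes lay above it. F13a1, the coagulation factor XIII A subunit of monocytes and platelets, spanned 78.7 to 350 over the livers. Pdpk1, a kinase upstream of AKT, ran from 585 to 713, Usf2 from 182 to 256, Epc2 from 125 to 178 and Macir from 479 to 640, while Lrch4 was dim (3.96 to 66.6). Being the highest of so many genes over 10 arrays, these values describe these livers and were not tested.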

How the data were processed

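The values the authors deposited are linear intensities, 1 for each probe set in each liver, and run below 0, as background subtraction gives. The software that made them is not given in the sources used here. Per the labels, biotin-labelled cRNA was made from 1 µg of total RNA. The platform annotation gave 1 symbol for 34945 of 45037 probe sets, several for 932 and none for 9160.

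Here the deposited intensities were quantile normalized, values under 16 were set to 16, and log2 was taken. This floor replaced the lowest positive value (0.000978) used in an earlier treatment of these data, which makes the folds of dim genes very large. Probe sets above the 40th percentile of mean log2 were tested with limma 3.58.1 in R 4.3.3 (trended eBayes, no term but genotype, Benjamini-Hochberg over all 27022, threshold 0.05). Single values and within-array ratios were compared by two-sided exact permutation, and correlations with 100000 permutations. Each liver is a separate animal, so the number of livers limits the precision.

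The genes, lists and tests were chosen with earlier results of these data known, and the ratios and covariates after values were seen. Named list genes are up to 4 called members and the 3 brightest (1 for other cell types). The genotype fit, but not the covariate fits or the ratios, was tried on simulated data in which probe sets varied independently of each other. Alternatives covered normalization, floor, filter, variance model, weights, pairing and leaving out livers. Promoters are RefSeq sequences of GRCm38.p6, and plots come from Python 3.11.15 with matplotlib 3.10.9.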

Additional observations from a re-analysis of the deposited data

Results flagged for a closer look

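Dixon's ratio set 2 of 78 groups of 5 livers apart, where chance gives about 1 in 20, or 3.9. Both were Zfp36l2: wild type replicate 3 was high at log2 9.22 (nearest 8.63), and knockout replicate 2 was low at 6.36 (nearest 6.68). None of the 7 promyelocyte genes, and none of the 7 ratios without overlap, had a liver set apart by this measure, although wild type replicate 5 was the highest liver for 5 of the genes.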

How the results depend on the processing

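Of 23 alternatives, 20 moved the number of called probe sets (57) by over 1.5 times: 94 with median scaling (69 higher and 25 lower, against 29 and 28), 11 with the lowest positive value as floor, 12 with a floor of 32, 4 without a filter, 9 without the variance trend, 103 with array weights and 179 with the replicate block, and 13 to 168 without single livers. Adding Mpo, Elane or Ms4a3 as a covariate, chosen after the data were seen, gave 118, 162 and 165. Those covariates also moved the number of called promyelocyte genes from 0 to 2, with Ctsg at 0.89, 0.74 and 0.80 and Prtn3 at 0.53, 0.39 and 0.45, and no other alternative called any. Replicate numbers were not taken as pairs in the main fit, the covariate fits or the exact permutation tests, since the labels name them only as replicates. Deviations of same-numbered livers from their genotype means correlated at 0.03 to 0.13, all positive but not every pair above 0.1. Of the 10 livers, 7 correlated best with their own number, and the block gave 179 calls against 57. These values do not show that the livers are unpaired, and whether same-numbered livers were handled together was not tested. The block changed no call of the 7 genes.

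Signs turned where differences were near 0: Elane reached 0.14 and 0.070 with Mpo and Ms4a3 as covariates, Ms4a3 reached 0.047 with Mpo, and Gfi1 0.88 with the lowest positive floor, 0.066 with an offset of 32, and 0.027 and 0.017 with Mpo and Ms4a3 as covariates. Without single livers Elane ran from -0.26 to 0.11, Ms4a3 from -0.25 to 0.045, Gfi1 from -0.25 to 0.19, Mpo from -0.38 to -0.03, Csf3r from -0.63 to -0.17, Prtn3 from 0.16 to 0.49 and Ctsg from 0.47 to 0.87. Mpo, Csf3r, Prtn3 and Ctsg kept their sign in all alternatives. At equal Mpo level a floor of 32, no filter or no trend could not change the values of Ctsg (0.89) and Prtn3 (0.53). Their calls were lost there, as printed above. Without single livers the values ran from 0.82 to 0.98 and from 0.50 to 0.59. The ratios of Ctsg to Mpo (0.82 to 0.98), Prtn3 to Mpo (0.50 to 0.59) and Ctsg to Prtn3 (0.29 to 0.39) kept an exact permutation p of at most 0.0238 in all 15 alternatives. Those of Ctsg to Elane (0.68 to 0.84) and Ms4a3 (0.70 to 0.88) and of Prtn3 to Elane (0.35 to 0.46) and Ms4a3 (0.37 to 0.49) kept one of at most 0.0159. The other floors could not change any of these ratios, since all values lay above them. Median scaling gives the same within-array ratios as no normalization. Prtn3 over Ms4a3 overlapped between genotypes without normalization, with median scaling and with an offset of 32. The causes of these shifts were not tested. Gfi1 and Csf3r lay near background, which limits what can be read from them.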
